A study of Homo sapiens with 6 samples.

Results

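The kinesin motor family was described at the RNA level in FUJIOKA, an established line of human acute myeloid leukaemia (AML), with and without silencing of SPINK2. Members were taken by symbol, as every gene named KIF followed by a number and at most 1 letter from A to C, together with KIFC1, KIFC2 and KIFC3. The rule found 48 rows, which carry 42 symbols, among the 63236 genes of the authors' deposited table. Of these, 31 had an adjusted p-value, against 17395 of all genes. Members were sorted by their textbook role into 14 mitotic kinesins, 15 transport kinesins and 13 other kinesins, of which 12, 12 and 7 were tested.

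Cells carried either a scrambled, non-targeting shRNA (shNEG, 3 libraries) or an shRNA against SPINK2 (shSPINK2, 3 libraries) in the Tet-pLKO-puro vector, brought in by lentivirus, from which doxycycline switches on the hairpin. Transduced cells of both groups were kept on doxycycline. The sample labels name 2 SPINK2 shRNAs and the study's methods name 1, so the 3 shSPINK2 libraries were treated as 1 group. How long cells had been on doxycycline when they were lysed is not given in the sources used here. The labels do not say whether the 3 libraries of a group came from separate cultures, so every p-value measures the spread between these libraries, which may be technical.

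Kinesins are motor proteins that use ATP to walk along microtubules or to take microtubules apart at their ends. One part of the family builds and positions the mitotic spindle, moves chromosomes and organises the midzone on which the cell divides, and the genes of these motors are transcribed mostly in G2 and mitosis. Another part carries vesicles, organelles and protein complexes through the cytoplasm of dividing and non-dividing cells alike.

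SPINK2 itself, the targeted gene, had 56, 63 and 53 reads in shNEG and 7, 9 and 6 in shSPINK2. Its log2 fold change of shSPINK2 against shNEG was −2.98 ± 0.41 (SE, DESeq2 adjusted p = 2.41e-12), and the groups did not overlap. Whole reads per library were worked out from the many digits of the authors' mean, fold change and standard error of each gene, which left 1 solution for 16096 of the 17395 tested genes and for each of the 31 tested kinesins. Those genes held between 16864581 and 17726250 reads per library, and the size factors by which the authors scaled the libraries lay between 0.985 and 1.03. The libraries of a group carry no replicate number in this recovery and are called a, b and c by falling size factor. Of 10 markers of myeloid blasts, 7 had means from 1844 (MPO) to 44100 (LYZ) normalised reads, ELANE had 829.9, and the stem cell markers CD34 and KIT had 19.6 and 0.666. Among markers of other cell types, COL1A1 had a mean of 149 and CD3E of 0.5, and EPCAM, ALB and HBB were listed at 0.

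Mitotic kinesins were lower in shSPINK2 cells throughout, and transport kinesins went in both directions. All 12 tested mitotic kinesins fell (100%), where 24.4% of all tested genes did, and 10 of them fell by more than 1 on the log2 scale, where 2.71% of all tested genes did. Their median log2 fold change was −1.14, with a range from −1.43 for KIF20A to −0.97 for KIF18A, against a median of 0.01 over all 17395 tested genes. Of 12 tested transport kinesins, 5 fell, 2 rose and 5 did not pass the test, with a median of −0.07, which was −0.13 without library shSPINK2 a. Of 7 tested other kinesins, 5 fell, KIF26B rose and KIF27 did not pass, with a median of −0.54. The share of all tested genes that rose was 22.7%, and no kinesin passed the test with a rise of more than 1, as 1.56% of all tested genes did. Mitotic kinesins are well expressed, and among the 8867 genes with a mean of at least 500 normalised reads the shares were 37.2% lower and 32% higher.

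**Figure D1:**
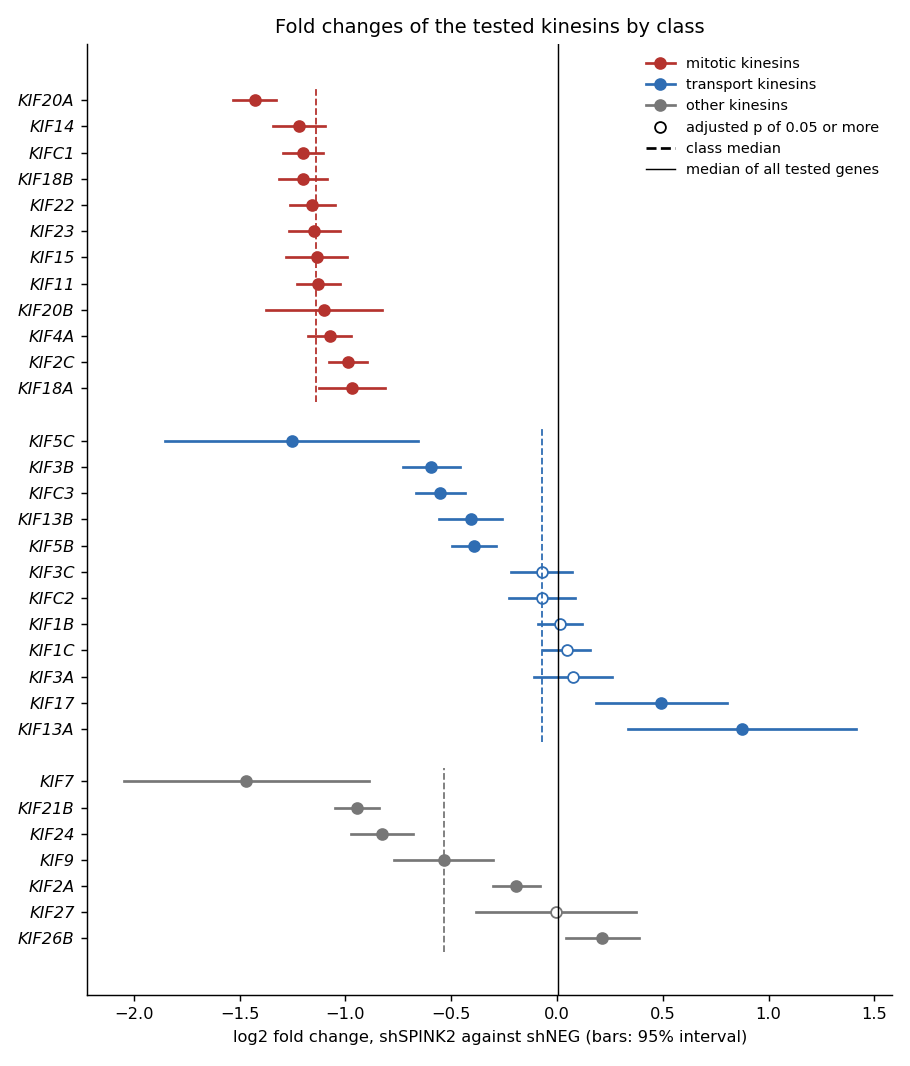
Log2 fold change of shSPINK2 against shNEG (x axis) for each of the 31 tested kinesins (rows), with bars for the 95% interval, in 3 classes. Filled points have an adjusted p under 0.05 and open points do not, dashed lines give the class medians of −1.14, −0.07 and −0.54, and the 12 mitotic kinesins lie between −1.43 and −0.97.

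In bulk RNA, fewer cells that express a gene and less of its RNA per cell cannot be told apart, and this holds for every value that follows. The proliferation markers MKI67, TOP2A and PCNA fell with the mitotic kinesins, with log2 fold changes of −1.30, −1.06 and −0.89 (DESeq2 adjusted p = 1e-133, 1.25e-93 and 5.52e-90), and the part of the cell cycle distribution in the kinesin values was not tested.

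The motors that set up a bipolar spindle fell below the control in every library. Of all tested genes with recovered reads, 29.5% were separated in this way. KIF11 (Eg5), the kinesin-5 that slides antiparallel microtubules apart and pushes the spindle poles away from each other, had 6549, 6623 and 6634 reads in shNEG and 2850, 3230 and 3050 reads in shSPINK2. Its log2 fold change was −1.13 ± 0.05 (SE, DESeq2 adjusted p = 3.05e-101), which leaves 45.7% of the shNEG level. KIF15, a kinesin-12 that can hold the spindle open when KIF11 is blocked, had 1966, 2126 and 2276 reads in shNEG and 889, 1016 and 1015 in shSPINK2, a log2 fold change of −1.14 ± 0.07 (SE, adjusted p = 2.03e-52). KIFC1 (HSET), a kinesin-14 that walks to the minus end and pulls poles and extra centrosomes together, had 5254, 4824 and 5117 reads in shNEG and 2248, 2241 and 2169 in shSPINK2. Of its exon bases, 14% are shared with the pseudogene RPL12P1 on the opposite strand, which had a mean of 1.5. Its log2 fold change was −1.20 ± 0.05 (SE, adjusted p = 2.11e-134). The outward motor KIF11 and the inward motor KIFC1 thus had 45.7% and 43.4% of their control level, with 95% intervals of the log2 fold change from −1.23 to −1.03 and from −1.30 to −1.11 that overlap.

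The chromokinesins, which bind chromosome arms, fell as well, without overlap of the groups, as did 29.5% of all tested genes with recovered reads. KIF4A, which works with condensin on mitotic chromosomes and with PRC1 at the midzone, had 4472, 4327 and 4405 reads in shNEG and 2011, 2180 and 2129 in shSPINK2, a log2 fold change of −1.07 ± 0.05 (SE, adjusted p = 3e-95). Its retrotransposed copy KIF4B had 2, 6 and 4 reads against 3, 2 and 3 and was not tested, and how the authors' counting split reads between these near-identical genes is not given in the sources used here. KIF22 (Kid), which pushes chromosome arms towards the equator, had 7076, 6748 and 6814 reads in shNEG and 3082, 2920 and 3323 in shSPINK2, a log2 fold change of −1.16 ± 0.05 (SE, adjusted p = 9.85e-100).

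The 3 members that act on microtubule ends included the smallest falls of the class. In each of them the groups did not overlap, where 29.5% of all tested genes with recovered reads were separated downwards. KIF2C (MCAK), the kinesin-13 that takes microtubule ends apart and corrects wrong attachments, had 5922, 5631 and 5667 reads in shNEG and 2925, 2863 and 2969 in shSPINK2, which is 50.4% of control (log2 fold change −0.99 ± 0.05 SE, adjusted p = 2.96e-100). KIF18A, a kinesin-8 that limits the swing of chromosomes at the equator, had 1162, 1140 and 1245 reads in shNEG and 550, 635 and 640 in shSPINK2, or 51.1% of control (log2 fold change −0.97 ± 0.08 SE, adjusted p = 1.42e-32). These were the only tested mitotic kinesins whose log2 fold change did not exceed 1 in size, and which members did so depended on single libraries. Without library shSPINK2 c, the log2 ratios were −1.017 for KIF2C and −1.025 for KIF18A. That of KIF2C was also −1.0006 without library shNEG b. Without library shSPINK2 a, that of KIF20B was −0.997. KIF18B, a kinesin-8 that tracks the plus ends of astral microtubules, had 2908, 2854 and 2817 reads in shNEG and 1362, 1162 and 1246 in shSPINK2, a log2 fold change of −1.20 ± 0.06 (SE, adjusted p = 8.54e-94).

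Kinesins of the spindle midzone and of cytokinesis held the largest fall of the class. The groups did not overlap in any of the 4, where 29.5% of all tested genes with recovered reads were separated downwards. KIF20A (MKLP2), a kinesin-6 that brings the chromosomal passenger complex to the midzone, had 5962, 5876 and 5739 reads in shNEG and 2075, 2266 and 2235 in shSPINK2. It kept 37.1% of the control level (log2 fold change −1.43 ± 0.05 SE, adjusted p = 2.79e-168) and ranked 120th from the lowest fold change among 17395 tested genes. KIF14, which recruits citron kinase to the midbody, had 3822, 4051 and 4060 reads in shNEG and 1560, 1866 and 1737 in shSPINK2, a log2 fold change of −1.22 ± 0.06 (SE, adjusted p = 1.02e-79). KIF23 (MKLP1), the motor subunit of the centralspindlin complex, had 2506, 2355 and 2500 reads against 1052, 1133 and 1166, a log2 fold change of −1.15 ± 0.06 (SE, adjusted p = 7.6e-74). KIF20B (MPP1), a kinesin-6 that acts late in cytokinesis, had 3458, 3654 and 3958 reads in shNEG and 1507, 2003 and 1685 in shSPINK2. Its log2 fold change of −1.10 had the largest error of the class (SE 0.14, adjusted p = 2.07e-14), and its shSPINK2 libraries differed by 15.3% of their mean (SD). The 95% interval of KIF20A, from −1.53 to −1.33, overlapped those of KIF14 and KIF20B and lay below those of the other 9 tested mitotic kinesins.

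**Figure D2:**
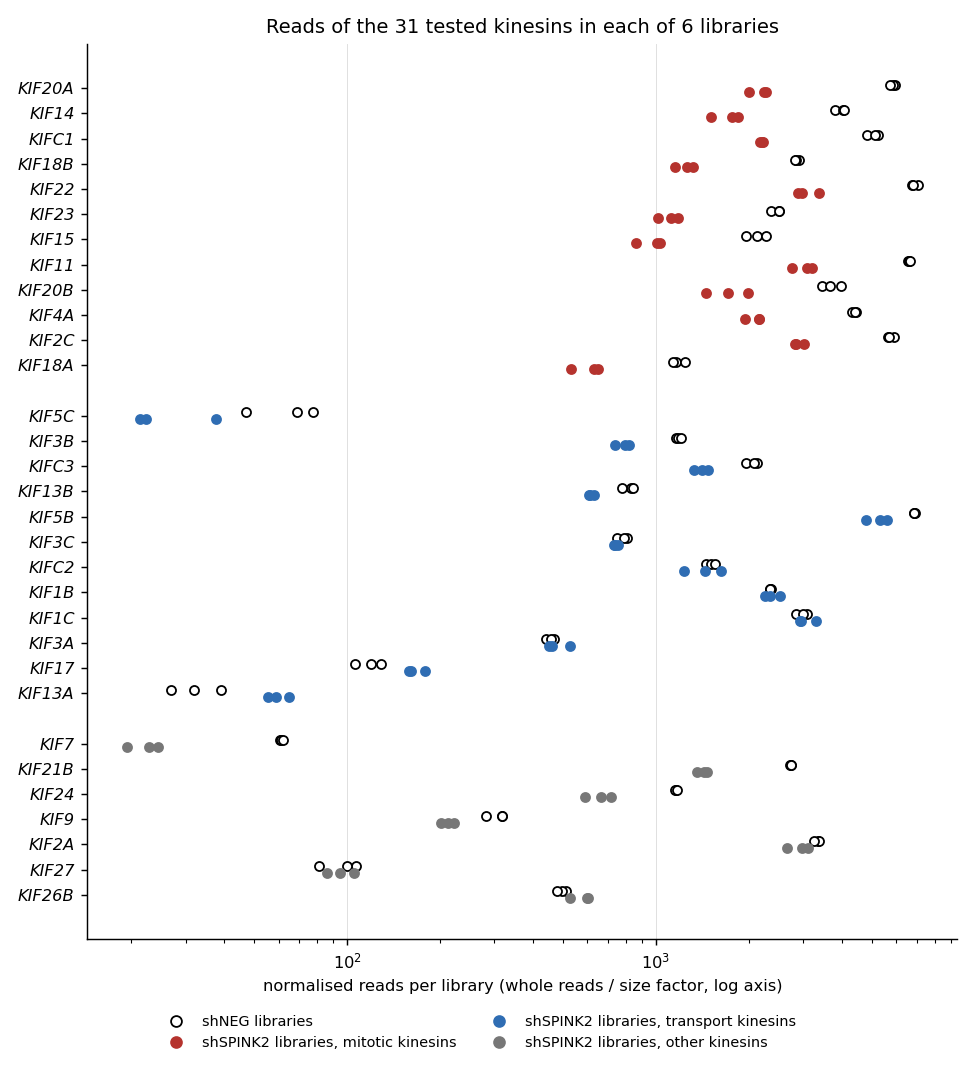
Normalised reads (whole reads over the size factor, log x axis) of each tested kinesin in the 3 shNEG libraries (open points) and the 3 shSPINK2 libraries (filled points). For the 12 mitotic kinesins the 3 filled points lie left of the 3 open points, while those of KIF17 and KIF13A lie right of them.

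The 3 shSPINK2 libraries lay below the 3 shNEG libraries in 12 of 12 tested mitotic kinesins after scaling, where 29.5% of the 16096 genes with recovered reads were separated in that direction. Within shNEG, the spread of the mitotic kinesins was small, with a median SD of 3.04% of the mean, and within shSPINK2 it was 7.58%. Library shSPINK2 a was the lowest of its group in 10 of the 12, where it was the lowest in 39.5% of all recovered genes, and KIF22 and KIF18B, in which library b was lowest, were the others. Without library a the median log2 ratio of the class was −1.08, and all 12 still passed limma on the recovered reads with each library left out in turn.

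Promoter sequence is shown because mitotic genes share a known layout. Many genes of G2 and mitosis carry a CHR, the cell cycle genes homology region bound by the DREAM and MMB complexes, near the start site, with CCAAT boxes bound by NF-Y a short way upstream. RefSeq promoter windows (GRCh38.p14) of 250 bases before to 50 after the start were at hand for 25 of the 31 tested kinesins, with KIF13B, KIF21B, KIF26B, KIF27, KIFC2 and KIFC3 missing, and were searched on both strands for the CHR words TTTGAA and TTCGAA and for CCAAT. A CHR word stood in 10 of 12 mitotic kinesin windows (83.3%), in 1 of 9 transport kinesin windows (11.1%), in 1 of 4 other kinesin windows and in 16.6% of 27305 windows of all genes. CCAAT stood in 10 of 12 (83.3%), 3 of 9 (33.3%) and 1 of 4 windows and in 35.7% of all. Both stood together in 9 of 12 mitotic windows (75%), in 1 of 9 transport windows, that of KIF5B, in 1 of 4 other windows, that of KIF24, and in 6.58% of all. Of the 3 E2F words TTTCCCGC, TTTGGCGC and TTTCGCGC, which contain neither a CHR word nor CCAAT, 1 was found, TTTGGCGC in the KIF15 window, where 2.79% of all windows hold any of them. Over the 10574 windows of tested genes, the shares were 11.8% for a CHR word, 36.7% for CCAAT, 4.9% for both and 4.44% for any E2F word. The lists were chosen with these genes' roles in mind, and a word is a run of letters and not a measured binding site.

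The 150 bases before the RefSeq start, written 5′ to 3′ along the gene, are given for 5 mitotic kinesins with both words, for KIF20A with 2 CCAAT boxes and no CHR word, for KIF2C with neither, and for the transport kinesins KIF5B and KIF1C. Capitals mark a CHR word, which reads TTCAAA where the first of the pair lies on the opposite strand. They also mark a CCAAT word, which reads ATTGG on the opposite strand. The stretches are KIF11 chr10:92592980-92593129 on the plus strand, KIF4A chrX:70289954-70290103 on the plus strand, KIF18A chr11:28108157-28108306 on the minus strand, KIF22 chr16:29790601-29790750 on the plus strand, KIF23 chr15:69414199-69414348 on the plus strand, KIF20A chr5:138178962-138179111 on the plus strand, KIF2C chr1:44739687-44739836 on the plus strand, KIF5B chr10:32056426-32056575 on the minus strand and KIF1C chr17:4997800-4997949 on the plus strand.
KIF11: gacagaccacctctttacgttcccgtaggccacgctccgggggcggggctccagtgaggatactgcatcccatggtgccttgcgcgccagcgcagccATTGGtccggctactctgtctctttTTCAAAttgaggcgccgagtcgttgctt
KIF4A: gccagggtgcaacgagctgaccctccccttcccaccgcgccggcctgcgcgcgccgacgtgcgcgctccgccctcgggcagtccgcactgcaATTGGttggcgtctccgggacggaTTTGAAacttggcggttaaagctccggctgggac
KIF18A: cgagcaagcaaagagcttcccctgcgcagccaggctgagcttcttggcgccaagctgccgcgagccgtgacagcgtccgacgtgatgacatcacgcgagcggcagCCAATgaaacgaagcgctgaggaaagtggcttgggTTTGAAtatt
KIF22: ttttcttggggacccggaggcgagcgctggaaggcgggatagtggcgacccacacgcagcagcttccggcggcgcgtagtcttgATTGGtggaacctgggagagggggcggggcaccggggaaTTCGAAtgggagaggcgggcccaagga
KIF23: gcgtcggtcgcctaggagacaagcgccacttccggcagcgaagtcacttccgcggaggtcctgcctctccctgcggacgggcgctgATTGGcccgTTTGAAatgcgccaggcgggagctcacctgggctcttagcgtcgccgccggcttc
KIF20A: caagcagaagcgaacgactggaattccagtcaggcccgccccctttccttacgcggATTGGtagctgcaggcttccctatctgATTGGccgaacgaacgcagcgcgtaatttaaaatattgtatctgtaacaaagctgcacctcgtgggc
KIF2C: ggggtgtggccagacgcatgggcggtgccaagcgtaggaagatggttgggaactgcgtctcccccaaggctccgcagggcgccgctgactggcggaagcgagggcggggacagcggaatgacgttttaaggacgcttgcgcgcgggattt
KIF5B: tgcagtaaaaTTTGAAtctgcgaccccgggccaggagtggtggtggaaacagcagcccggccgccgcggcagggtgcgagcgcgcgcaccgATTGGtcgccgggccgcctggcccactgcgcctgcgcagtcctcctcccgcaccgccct
KIF1C: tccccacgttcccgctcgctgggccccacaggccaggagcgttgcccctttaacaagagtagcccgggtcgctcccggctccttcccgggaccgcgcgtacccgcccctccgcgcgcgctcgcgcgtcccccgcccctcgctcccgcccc

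In these stretches the CHR word of KIF11 starts 28 bases before the start site with the CCAAT word 25 bases further upstream, and in KIF4A the distances are 34 and 24 bases. In KIF18A they are 10 and 35, in KIF22 27 and 39, and in KIF23 55 and 9. The CHR word of KIF5B lies 140 bases before the start, further away than any CHR word in a mitotic window, where the 11 words lie between 55 bases before and 31 bases after it. KIF14, KIF18B, KIF20B and KIFC1 hold their CHR words after the start site, and KIF15 holds one 35 bases before it with no CCAAT word. KIF20A and KIF2C, the 2 tested mitotic kinesins with no CHR word in these windows, had the largest and the next to smallest fall of the class.

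Among transport kinesins, the kinesin-1 heavy chains fell. KIF5B, the ubiquitous heavy chain that moves mitochondria, lysosomes and many vesicles, had 6950, 6838 and 6848 reads in shNEG and 4941, 5662 and 5233 in shSPINK2, or 76.1% of control (log2 fold change −0.39 ± 0.05 SE, adjusted p = 5.22e-13). KIF5C, its mostly neuronal relative, had 78, 47 and 69 reads in shNEG and 23, 38 and 21 in shSPINK2, a log2 fold change of −1.25 ± 0.31 (SE, adjusted p = 0.000136). It was the one transport kinesin past a log2 fold change of 1, at a mean of 45.8 normalised reads, and its groups did not overlap although its libraries spread by 24.6% (shNEG) and 33.9% (shSPINK2) of the mean. KIF5A, the third heavy chain, had a mean of 0.493 and no adjusted p-value.

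Of the kinesin-2 motors, which pair KIF3A with KIF3B or KIF3C and carry cargo in cilia and in the cytoplasm, 1 of the 3 subunits passed the test. Among all tested genes, 24.4% fell and 22.7% rose. KIF3B had 1167, 1183 and 1204 reads in shNEG and 761, 805 and 806 in shSPINK2, or 66.2% of control (log2 fold change −0.59 ± 0.07 SE, adjusted p = 3.55e-17). Its partner KIF3A had 442, 469 and 458 reads against 478, 532 and 445, a log2 fold change of 0.08 ± 0.09 (SE, adjusted p = 0.556) with a 95% interval from −0.11 to 0.26. KIF3C had 809, 750 and 786 reads against 780, 741 and 728, a log2 fold change of −0.07 ± 0.07 (SE, adjusted p = 0.452) with an interval from −0.22 to 0.07. The interval of KIF3B, −0.73 to −0.46, did not touch those of KIF3A and KIF3C, and in both of these the groups overlapped. KIF17, a homodimeric kinesin-2, rose from 120, 106 and 129 reads to 164, 181 and 159, a log2 fold change of 0.49 ± 0.16 (SE, adjusted p = 0.00477), without overlap.

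The kinesin-3 motors, which carry vesicle precursors and endosomes, went 3 ways. KIF1B, which moves synaptic vesicle precursors and mitochondria, had 2348, 2366 and 2343 reads against 2327, 2551 and 2309 (log2 fold change 0.01 ± 0.05 SE, adjusted p = 0.861), with a 95% interval from −0.09 to 0.12. KIF1C, which carries integrin vesicles and mRNA, had 3094, 2840 and 2985 reads against 3032, 2981 and 3261 (log2 fold change 0.05 ± 0.06 SE, adjusted p = 0.557), with an interval from −0.07 to 0.16. Both intervals leave room for a change of at most 0.16 on the log2 scale in either direction. KIF13A, which takes recycling endosomes outwards, had 27, 32 and 39 reads in shNEG and 61, 56 and 64 in shSPINK2, a log2 fold change of 0.87 ± 0.28 (SE, adjusted p = 0.00407). This was the highest fold change of all tested kinesins, at a mean of 46.2 normalised reads, and the groups did not overlap. Its close relative KIF13B fell from 834, 841 and 777 reads to 652, 612 and 601, or 75.4% of control (log2 fold change −0.41 ± 0.08 SE, adjusted p = 3.69e-07). The 95% intervals of the pair lay on opposite sides of 0, from 0.33 to 1.41 for KIF13A and from −0.56 to −0.26 for KIF13B.

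The 2 kinesin-14 members of the class walk to the minus end. KIFC3, which acts at cell junctions and in Golgi positioning, had 2137, 1960 and 2082 reads in shNEG and 1460, 1341 and 1449 in shSPINK2, or 68.2% of control (log2 fold change −0.55 ± 0.06 SE, adjusted p = 2.42e-19). KIFC2 had 1454, 1515 and 1555 reads against 1682, 1248 and 1417 (log2 fold change −0.07 ± 0.08 SE, adjusted p = 0.502), and its groups overlapped. The 95% intervals did not touch, from −0.67 to −0.44 for KIFC3 and from −0.23 to 0.08 for KIFC2. The KIFC2 value leaned on single libraries, with a log2 ratio of −0.17 without library shSPINK2 a, where it passed limma, and of 0.02 without library shSPINK2 b. Of the KIFC2 exon bases, 17.8% are shared with FOXH1 on the opposite strand, which had a mean of 16.7 normalised reads.

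Over the 12 tested transport kinesins, 5 were separated downwards, 2 upwards and 5 overlapped between groups. Of all tested genes with recovered reads, 29.5% were separated downwards and 28.2% upwards. Every member separated in this way had also passed the test.

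The other kinesins hold motors of cilia, of microtubule ends and of less settled roles. KIF24, which caps centrioles and keeps cilia from forming in cycling cells, fell from 1168, 1155 and 1173 reads to 608, 673 and 704, or 56.4% of control (log2 fold change −0.83 ± 0.08 SE, adjusted p = 1.41e-26). KIF21B, a kinesin-4 that limits microtubule growth in neurons and T cells, fell from 2740, 2724 and 2739 reads to 1480, 1371 and 1446, or 51.9% of control (log2 fold change −0.94 ± 0.05 SE, adjusted p = 1.75e-69). Besides KIF5B, KIF24 was the one searched member outside the mitotic class whose window held both promoter words. KIF2A, a kinesin-13 that works at spindle poles and in neurites, fell from 3358, 3388 and 3255 reads to 2743, 3140 and 2938, or 87.5% of control (log2 fold change −0.19 ± 0.06 SE, adjusted p = 0.00206). Its fall was smaller than that of the mitotic kinesin-13 KIF2C, with 95% intervals from −0.30 to −0.08 and from −1.08 to −0.90. For KIF2A, 21.3% of the exon bases are shared with DIMT1 on the opposite strand, which did not pass the test (−0.12, adjusted p = 0.0608), and with an unnamed gene on the same strand.

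KIF9, a motor of motile cilia, fell from 319, 283 and 318 reads to 219, 203 and 218 (log2 fold change −0.54 ± 0.12 SE, adjusted p = 2.64e-05). It shares 17.8% of its exon bases with KIF9-AS1 and KLHL18 on the opposite strand. KLHL18 had a mean of 1100 and fell (−0.24, DESeq2 adjusted p = 0.00116), and KIF9-AS1 had a mean of 89.1 and did not pass (−0.43, adjusted p = 0.0681). KIF7, which regulates Hedgehog signalling at the tip of the primary cilium, fell from 61, 61 and 62 reads to 20, 23 and 24, the lowest fold change of the family (−1.47 ± 0.30 SE, adjusted p = 2.84e-06). Its mean was 41.7 normalised reads and 10.8% of its exon bases are shared with TICRR on the opposite strand, a replication gene that fell by 1.14 on the log2 scale (adjusted p = 5.54e-67) from a mean level of 2300 over all libraries. Whether the counting used strand is not given in the sources used here. Reads of KIF7 and TICRR, and of KIF9 and its overlapping genes, thus cannot be told apart in the shared bases. KIF26B, a kinesin that has lost its motor activity, rose from 514, 497 and 479 reads to 544, 603 and 595 (log2 fold change 0.21 ± 0.09 SE, adjusted p = 0.034), and missed limma's threshold without library shSPINK2 c (adjusted p = 0.0527). KIF27, a relative of KIF7, had 107, 100 and 81 reads against 89, 96 and 104 and did not pass (log2 fold change −0.01 ± 0.19 SE, adjusted p = 0.986), with an interval from −0.38 to 0.37.

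Summed over the class, mitotic kinesins had 50912, 50177 and 51290 normalised reads in shNEG and 21401, 23295 and 23710 in shSPINK2. The sums of the transport kinesins were 19405, 18935 and 19297 against 15836, 16591 and 16737, most of it KIF5B, KIF1C and KIF1B, and those of the other kinesins 8243.6, 8202.7 and 8116.2 against 5519.9, 6051.9 and 6118.2. Mitotic kinesins therefore made up 64.8%, 64.9% and 65.2% of the reads of tested kinesins in shNEG and 50.1%, 50.7% and 50.9% in shSPINK2, and the share of transport kinesins went from between 24.5% and 24.7% to between 35.9% and 37%. These are shares of reads, so that a class with longer transcripts takes a larger share.

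**Figure D3:**
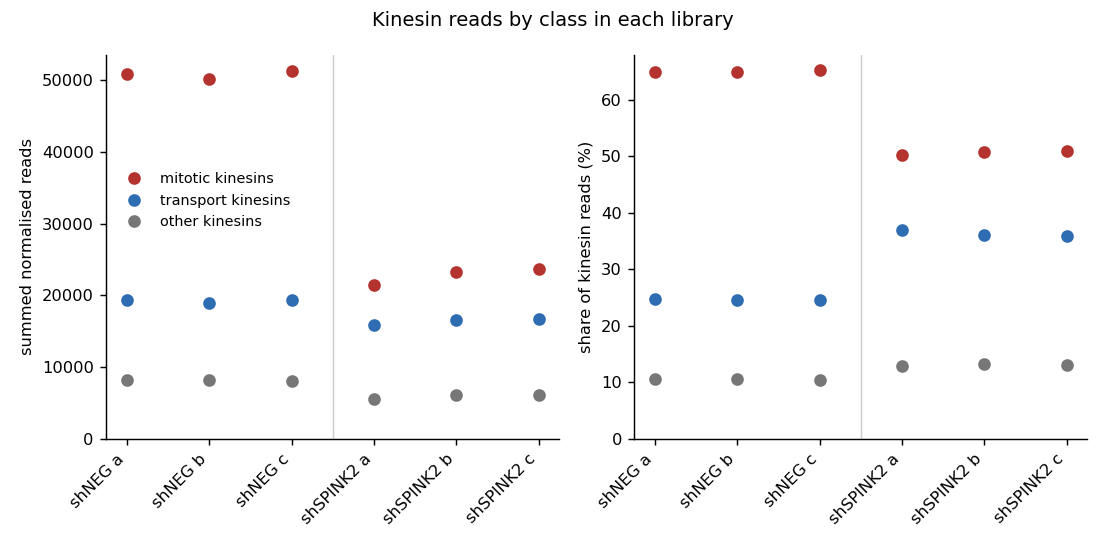
Summed normalised reads (left) and share of the reads of tested kinesins in percent (right) by class in each of the 6 libraries, with 1 point per class and library and a grey line dividing the groups. The mitotic sum goes from between 50177 and 51290 to between 21401 and 23710, and the mitotic share from between 64.8% and 65.2% to between 50.1% and 50.9%.

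Levels were compared between genes as the authors' mean normalised count over all 6 libraries per kb of exon, with exons joined over all GENCODE transcripts of the gene. On this scale KIFC1 (1198), KIF2C (1183), KIF20A (1042) and the transport kinesin KIF5B (1032) stood highest, followed by KIF11 (903), KIF4A (709) and KIF22 (694). The order differed between the groups. In shNEG the levels per kb were 1670 ± 71.3 for KIFC1, 1573 ± 40.9 for KIF2C, 1520 ± 26.2 for KIF20A, 1240 ± 11 for KIF11 and 1172 ± 8.64 for KIF5B (SD, n = 3), so that KIF5B stood at rank 5. In shSPINK2 KIF5B stood at rank 1 with 892 ± 71.4, before KIF2C with 794 ± 28.5 and KIFC1 with 726 ± 7.33, and KIF11 (567 ± 43.4) and KIF20A (564 ± 37.4) lay within their spread of each other. The class medians were 565 for mitotic, 122 for transport and 44 for other kinesins. KIF5B stood well apart from the other transport kinesins, of which KIF1C (352) and KIFC2 (331) were next, and KIF5C (1.38), KIF13A (4.15) and KIF7 (7.66) stood at the bottom. The 2 lowest fold changes outside the mitotic class, of KIF7 and KIF5C, and the highest, of KIF13A, thus belonged to the 3 members with the lowest levels. No neighbours in this order were tested against each other, and the length of a gene with many alternative exons, such as KIF5C with 33151 bases, lowers its value.

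**Figure D4:**
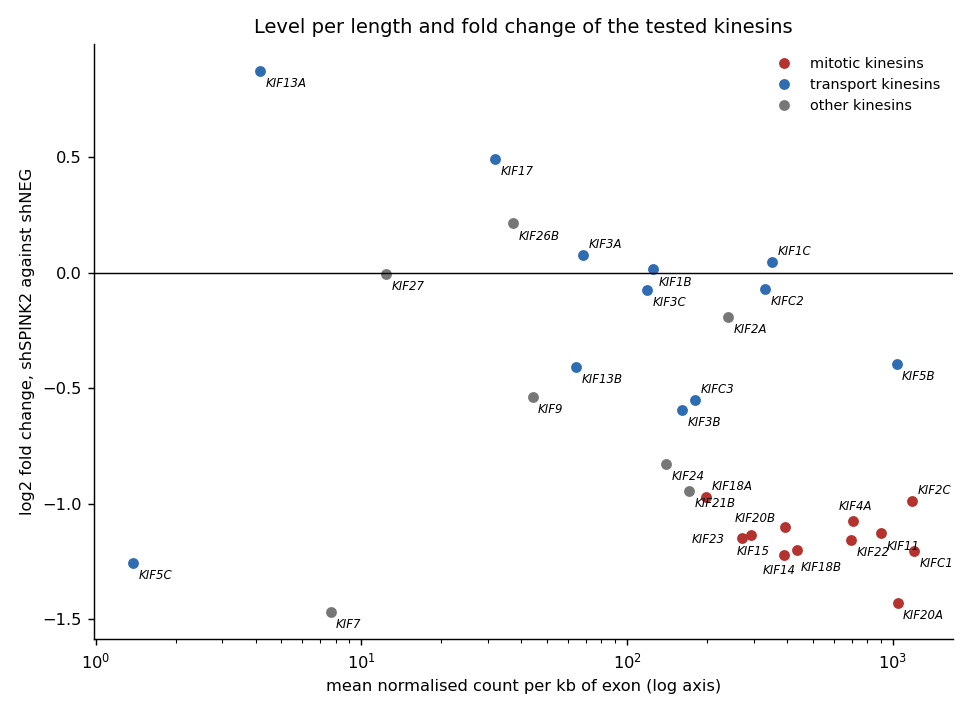
Mean normalised count per kb of exon (log x axis) against log2 fold change of shSPINK2 against shNEG (y axis) for the 31 tested kinesins by class. The 12 mitotic kinesins form a band between −1.43 and −0.97 at levels from 198 to 1198, while KIF5C, KIF13A and KIF7 lie at 1.38, 4.15 and 7.66.

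Partners of the mitotic motors fell as well. All 14 genes of a list of spindle and cytokinesis partners passed, 9 of them by more than 1 on the log2 scale, where 24.4% of all tested genes fell and 2.71% fell by more than 1, with a median log2 fold change of −1.09. CENPE, a kinesin-7 of the kinetochore that the symbol rule leaves out, had 1992, 2161 and 2681 reads in shNEG and 789, 983 and 903 in shSPINK2 (log2 fold change −1.36 ± 0.17 SE, adjusted p = 1.96e-15). PRC1, the microtubule bundler that recruits KIF4A to the midzone, was the lowest of the list at −1.97 ± 0.05 (SE, adjusted p listed as 0), with 5097, 5058 and 5126 reads against 1319, 1281 and 1339. It lay below each of the 12 mitotic kinesins, and ECT2, the cytokinesis factor that centralspindlin with KIF23 recruits, was the highest of the list at −0.84 ± 0.06 (SE, adjusted p = 4.24e-46).

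Partners of the transport motors went in both directions. Of 12 light chains and adaptors, 11 were tested, 3 fell, 4 rose and 4 did not pass, with a median of −0.04, where 24.4% of all tested genes fell and 22.7% rose (37.2% and 32% at a mean of at least 500). Among the kinesin light chains, which tie KIF5 motors to cargo, KLC2 fell from 787, 773 and 835 reads to 523, 491 and 525 (log2 fold change −0.65 ± 0.08 SE, adjusted p = 4.88e-15) and KLC4 rose from 493, 540 and 514 to 917, 865 and 911 (0.79 ± 0.08 SE, adjusted p = 9.58e-23). These were the ends of the list. KLC1 fell from 1667, 1646 and 1590 to 1337, 1125 and 1287 (−0.40 ± 0.07 SE, adjusted p = 1.04e-08), close to the fold change of its heavy chain KIF5B of −0.39. KIFAP3, the accessory subunit of kinesin-2, had 789, 782 and 801 reads against 706, 791 and 650 and did not pass (−0.16 ± 0.08 SE, adjusted p = 0.0969).

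Cytoplasmic dynein 1 and dynactin, the motor of the opposite direction, served as a comparison. Of 20 subunits, 19 were tested, 7 fell, 6 rose and 6 did not pass, none by more than 1 on the log2 scale, with a median of 0.01. The share that fell, 36.8%, was near the 37.2% of all genes with a mean of at least 500, of which 32% rose. The heavy chain DYNC1H1 rose (0.24 ± 0.04 SE, adjusted p = 6.98e-09), and the list ran from ACTR1B at −0.66 ± 0.06 (SE, adjusted p = 1.03e-23) to DYNLT3 at 0.45 ± 0.08 (SE, adjusted p = 2.47e-08). The 12 mitotic kinesins lay below the lowest dynein or dynactin subunit, and of the transport kinesins only KIF5C did. Of the other kinesins, KIF7, KIF21B and KIF24 did. KIF9, KIF26B, KIF27 and KIF2A, which works at spindle poles and had a log2 fold change of −0.19, did not.

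Of the 42 symbols, 11 were not tested. KIF1A, KIF2B, KIF6, KIF12, KIF16B, KIF19, KIF25 and KIF26A were listed at 0, and KIF4B, KIF5A and KIF21A had reads but no adjusted p-value, with means of 3.32, 0.493 and 0.33. KIF21A held 2 reads in 1 shSPINK2 library and none elsewhere, while the related KIF21B had at least 1371 in every library. A further 6 rows, 3 of KIFC1 and 1 each of KIF5C, KIF15 and KIF26B, are other gene identifiers of the same symbols and were listed at 0.

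The seed words of the SPINK2 hairpins were looked up in the 3′ UTRs of the tested kinesins. TCATAAT, which pairs with positions 2 to 8 of the guide of shRNA1, stood in those of KIF14, KIF26B, KIF5B and KIF5C, 4 of 31, against 13.3% of 12722 tested genes. TCAGTAT, which pairs with that of shRNA2, stood in those of KIF11, KIF14, KIF21B and KIF26B, against 15.1% of tested genes. GCTCTCA is the seed word of neither hairpin. It was chosen with earlier results of these data in view, so its share is a description only. This word stood in the 3′ UTRs of KIF21B, KIF24 and KIF3C, against 10.4% of tested genes. Of the 12 tested mitotic kinesins, 2 held any of these words. KIF14 and KIF26B held both seed words, and KIF14 fell while KIF26B rose. The other holders of a seed word, KIF5B, KIF5C, KIF11 and KIF21B, fell, where 22 of all 31 tested kinesins did (71%). The 3′ UTRs searched ran from 74 bases in KIF22 to 6826 in KIF26B, and the counts were not adjusted for length.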

How the data were processed

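RNA of 3 shNEG and 3 shSPINK2 libraries was sequenced and compared by the authors in 1 fit. Per the study's methods, the authors used FastQC for read quality, STAR for alignment to hg38 and featureCounts for gene counts. The authors ran DESeq2 on these counts. The submitters' processing notes name STAR 2.7.11 and DESeq2 1.40.0. The annotation release and the strand setting are not given in the sources used here. The authors deposited 1 table, whose signal column is the mean over all 6 libraries of counts divided by size factors. The log2 fold changes and their standard errors, the Wald score and the p-values with their Benjamini-Hochberg adjustment were deposited by the authors from the same fit. Fold changes, errors and adjusted p-values in the text are these deposited values. A gene was called at an adjusted p under 0.05.

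Whole reads per library were recovered from the deposited mean, whose value for genes with 1 read in 1 library gives each size factor. Whole-number solutions were searched for genes with a mean of at most 6500, and a solution was kept where a refit of the negative binomial model returned the deposited fold change. The sign of the fold change of those genes with 1 read gave the group of each library, and replicate numbers could not be assigned. Of the tested genes, 16096 had 1 solution, and 97 with several and 7 with too many candidates were not used. The steps were tested on simulated data, the recovery only at means below those of every tested mitotic kinesin but KIF18A. At the higher means of the others and of KIF5B, the recovery was not simulated. Counting error is within the SE of each value.

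As an alternative, limma 3.58.1 in R 4.3.3 was run on log2 of the recovered reads over size factors with a pseudocount of 0.5. Exon lengths and overlaps came from GENCODE 44, in which 17233 of the 17395 tested genes were matched, and promoters from RefSeq. Scripts ran in Python 3.11.15 with numba 0.67.0, numpy 2.4.6, scipy 1.17.1 and pandas 2.3.3, and figures were drawn with matplotlib 3.10.9. Every member with an adjusted p-value was named, as were the ends of each companion list with CENPE, KLC1, KIFAP3, DYNC1H1 and SPINK2. TICRR, DIMT1, FOXH1, KLHL18, KIF9-AS1 and the marker genes were named beside results they touch, and a marker of another cell type is not reported here. The members and lists were chosen with earlier results of these data known.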

Additional observations from a re-analysis of the deposited data

How the results depend on the processing

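The counts of mitotic kinesins stayed within 1.5 times of the reported ones under each alternative run. Of the other class values, the number of transport kinesins lower was 1 (5 as reported) when an absolute log2 fold change over 1 was also asked for, and the number higher (2) was 0 with Bonferroni adjustment, 1 with a mean of at least 50 and 0 with that fold. The number of other kinesins lower (5) was 3 with Bonferroni adjustment and 1 with the fold, and the number higher (1, KIF26B) was 0 at an adjusted p under 0.01, with Bonferroni adjustment and with the fold. With each library left out of limma in turn it was 0 to 1, and 0 without shSPINK2 library c. The median log2 fold change of other kinesins was −0.36 with a mean of at least 50 and −0.68 with KIF2A counted as mitotic. With KIF2A so counted, 13 mitotic kinesins were lower, with a median of −1.14, and KIF2A at −0.19 was the smallest fall of the class. The median of mitotic kinesins ran from −1.19 (without shSPINK2 library c) to −1.08 (without shSPINK2 library a), and that of transport kinesins from −0.13 (without shSPINK2 library a) to −0.05 (without shSPINK2 library b). The cause of these shifts was not tested beyond the stricter rule or the smaller set that each alternative sets. limma on recovered reads called 8494 of 16096 genes and the same 25 of 31 kinesins as the deposited test. The number of kinesins called past the fold, 12 in the deposited test, was 11 to 14 with each library left out of limma in turn. Leave-one-out and the other settings that moved members' values reversed no called member. No paired analysis was possible because the recovered libraries carry no replicate number. With 3 libraries a group, an exact permutation test of a single gene cannot go below p = 0.1.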
